A study of Mus musculus with 9 samples.

Results

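Hemoglobin-dominant cells are described here as they appeared in single-cell suspensions of mouse brain. They were chosen by their counts alone: a cell entered where the alpha globin genes Hba-a1 and Hba-a2 and the beta globin genes Hbb-bs and Hbb-bt together took 50% or more of its unique molecular identifiers (UMIs), the tags that let copies made by PCR count once. This held for 397 of 29571 cells, or 1.34% (95% exact Clopper-Pearson interval 1.21% to 1.48%). Brainstem, cortex and hypothalamus came from C57BL/6 male mice (C57BL/6J in the study's methods) of 9 to 11 weeks that had slept normally (NS), had been sleep deprived for 12 h (SD), or had recovered after 12 h of deprivation (RS), the recovery being given as 24 h in one sentence of the labels and as 12 h in another. All groups were collected at ZT12, each library combined tissue from 3 mice, and that tissue was digested with papain and depleted of myelin on beads before droplet capture. Each of the 9 combinations of region and group is therefore 1 library with no replicate. The table names the 9 libraries by codes that the labels do not tie to a region or a sleep group, so libraries are numbered 1 to 9 by their order in the table, values are given for each library, and sleep groups and regions are not analysed here.

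Red blood cells carry oxygen on hemoglobin, a tetramer of alpha and beta globin chains that each hold a heme. Their precursors build up globin, heme and iron transport together in the bone marrow, then lose the nucleus. Young red cells, called reticulocytes, still hold RNA, ribosomes and mitochondria, which they clear by mitophagy and ubiquitin-dependent degradation. In brain tissue red cells lie inside the vessels, next to endothelial cells and pericytes, so blood left in the tissue is carried into a suspension. RNA freed from broken cells is also captured with other cells in the droplets.

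The 4 genes that chose the cells lie in 2 clusters. In the GENCODE annotation of GRCm38, Hba-a1 spans chr11:32283511-32284465 and Hba-a2 spans chr11:32296489-32297298, both on the plus strand. The beta genes Hbb-bs (chr7:103826534-103828096) and Hbb-bt (chr7:103812524-103813996) lie on the minus strand. The transcripts of the alpha pair matched at 537 of 538 aligned bases (99.8%), so reads cannot be divided with confidence between Hba-a1 and Hba-a2. The beta pair matched at 580 of 626 aligned bases (92.7%). The 150 bases before the start of 3 globin genes and of Alas2, the marker whose level differed most outside the globins, are shown from RefSeq (GRCm38.p6), 5′ to 3′ on the strand of the gene. Capitals mark every match, on either strand, to GATAA (letters bound by GATA factors), to CACCC (bound by KLF factors), to the box CCAAT and to the letters TATAA of the TATA box. The windows end at the RefSeq start, and in GENCODE these 4 genes begin before or within them.
Hba-a1 (chr11:32283522-32283671, plus strand): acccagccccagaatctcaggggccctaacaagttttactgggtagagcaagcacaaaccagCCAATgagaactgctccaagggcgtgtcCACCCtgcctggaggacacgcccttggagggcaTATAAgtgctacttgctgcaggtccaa
Hbb-bs (chr7:103827929-103828078, minus strand): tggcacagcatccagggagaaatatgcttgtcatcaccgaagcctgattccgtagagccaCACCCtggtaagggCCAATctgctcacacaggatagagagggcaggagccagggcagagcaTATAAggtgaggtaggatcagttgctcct
Hbb-bt (chr7:103813924-103814073, minus strand): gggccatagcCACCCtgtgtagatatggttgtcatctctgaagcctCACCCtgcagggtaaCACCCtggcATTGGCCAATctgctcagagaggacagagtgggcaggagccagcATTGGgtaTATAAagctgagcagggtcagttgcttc
Alas2 (chrX:150547267-150547416, plus strand): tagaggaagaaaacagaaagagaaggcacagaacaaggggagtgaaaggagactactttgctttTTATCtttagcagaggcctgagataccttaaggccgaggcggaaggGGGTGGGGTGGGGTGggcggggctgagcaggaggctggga
All 4 globin windows, that of Hba-a2 included, held CACCC, the CCAAT box and the TATAA letters, and none held GATAA. Among 32851 promoter windows of the same length, CACCC occurred in 37.4%, the CCAAT box in 24.5%, the TATAA letters in 14.2% and the GATAA letters in 13.3%. The Alas2 window held CACCC 3 times and GATAA once, and neither of the other motifs. The 147 aligned bases of the alpha pair were identical here, against 109 of 148 (73.6%) in the beta pair. These matches describe letters and are not measurements of binding.

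The share of UMIs taken by hemoglobin had one broad lower range and one peak near its top. Most cells, 28744 of 29571, held under 1%, 299 held from 5% to under 50%, and 163 held 90% or more. Between them the distribution had no gap at the rule: 34 cells lay at 45% to under 50% and 32 at 50% to under 55%. The nearest cells outside it had 49.7%, 49.8% and 49.9%, and the nearest inside had 50.1%, 50.2% and 50.2%. The rule thus cuts a continuous range, and the cells inside it are described below in steps of 50% to 75% (146 cells), 75% to 90% (88 cells) and 90% or more (163 cells).

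**Figure D1:**
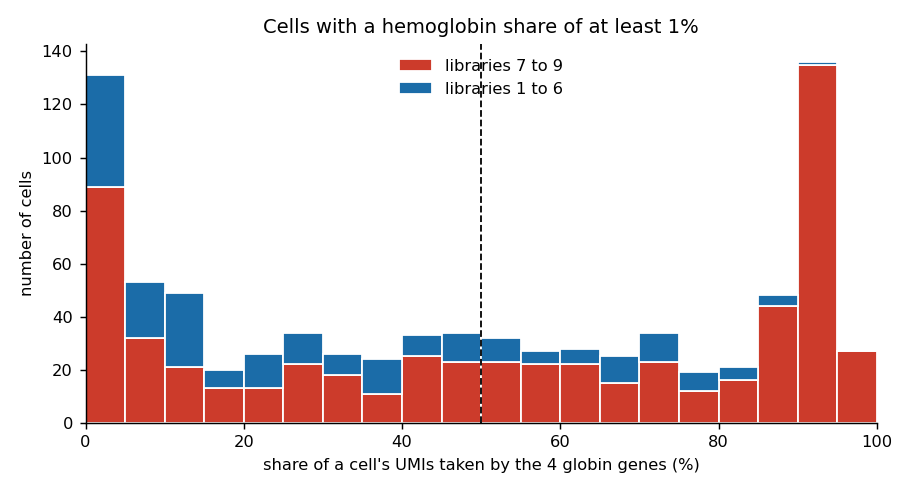
Number of cells (y axis) by the share of the cell's UMIs taken by the 4 globin genes (x axis, percent, steps of 5), for cells of at least 1%, with libraries 7 to 9 in red and libraries 1 to 6 stacked above in blue; the dashed line is the 50% rule. Numbers are low and even across the middle, and the peak at 90% and above comes from libraries 7 to 9 apart from 1 cell.

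Hemoglobin-dominant cells were found in all 9 libraries, but unevenly. Library 7 held 116 among 3731 cells (3.11%, interval 2.58% to 3.72%), library 8 held 59 among 3519 (1.68%, 1.28% to 2.16%), and library 9 held 164 among 3713 (4.42%, 3.78% to 5.13%). Libraries 1 to 6 held 15, 11, 11, 6, 12 and 3 such cells, shares of 0.0766% to 0.583%, and none of their intervals reached those of libraries 7 to 9. Libraries 7 to 9 thus contributed 339 of the 397 cells (85.4%), and 88.6% of their non-globin UMIs, against 36.4% of the other cells. Shares of cells and intervals throughout cover counting error only, at a level of 95%.

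The cells at 90% or more were still more uneven. Library 7 held 88 of the 163, library 8 held 29, library 9 held 45, library 3 held 1, and the other libraries held none. Within library 7 they were 75.9% of hemoglobin-dominant cells, within library 8 49.2% and within library 9 27.4%. The median hemoglobin share was 94.0% in library 7, 86.8% in library 8 and 85.1% in library 9, and from 64.3% to 76.6% in libraries 1 to 6.

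**Figure D2:**
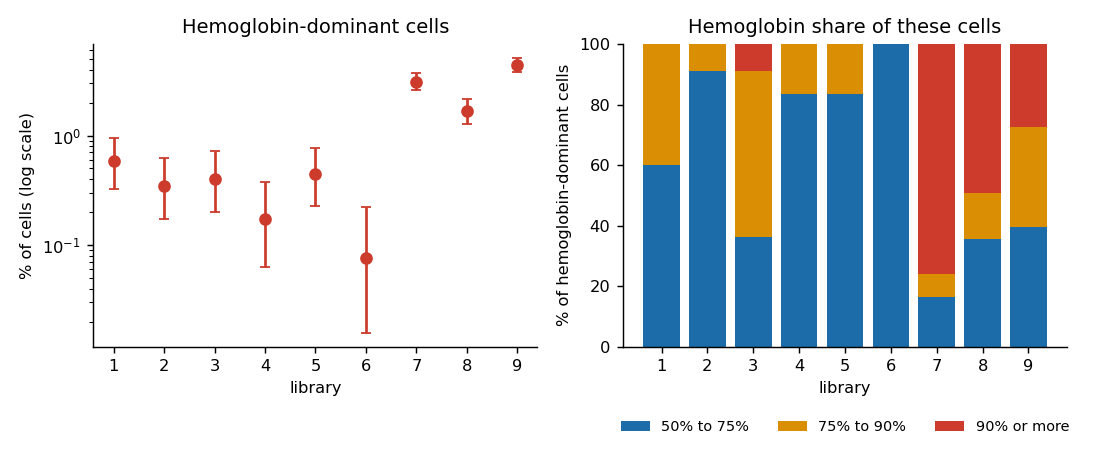
Left, hemoglobin-dominant cells as percent of each library's cells (log scale), with 95% exact binomial intervals; right, how those cells divide by hemoglobin share (percent of the library's hemoglobin-dominant cells). Libraries 7 to 9 lie between 1.68% and 4.42%, above the other 6, and hold all but 1 of the cells at 90% or more.

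Hemoglobin was also counted in other cells, and more so in the libraries with more hemoglobin-dominant cells. The 4 genes took 6.79%, 3.22% and 4.83% of all UMIs in libraries 7, 8 and 9, and 0.0837% to 0.824% in libraries 1 to 6. Over the series 82.7% of the 4 genes' UMIs lay in hemoglobin-dominant cells. Among other cells at least 1 hemoglobin UMI was present in 90.04%, 76.8% and 83.2% in libraries 7, 8 and 9, with a median share of 0.162% to 0.248%, and in 6.21% to 19.5% of those in libraries 1 to 6, where the median was 0. The library totals ran from 1522766 to 5488950 UMIs, and 1105 cells, 20 of them hemoglobin-dominant, carried a barcode that also occurred in another library.

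Outside hemoglobin these cells held little RNA. The median total was 1604 UMIs per cell, against 801 in the other cells, but with the 4 globin genes left out it was 189 (range 89 to 1564). The median number of non-globin genes detected was 124, against 422 in other cells. In equal samples of 100 non-globin UMIs the median was 77 genes in both sets, for the 392 hemoglobin-dominant cells and 29174 other cells deep enough, so the medians at equal depth did not differ. Hemoglobin UMIs per cell were higher in each step, with medians of 651.5, 995 and 2125, while the medians of non-globin UMIs were 431, 164 and 139. The rule and the steps divide cells by the share of hemoglobin in their UMIs. The low non-globin counts and the opposite orders over the steps thus follow in part from the rule.

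Alpha and beta globin were present in close to equal amounts, and all 397 cells had UMIs of all 4 genes. Of their hemoglobin UMIs, Hbb-bs took 43.0%, Hba-a1 25.2%, Hba-a2 22.8% and Hbb-bt 8.92%, as sums over libraries. The alpha genes together took 48.1% (interval 47.9% to 48.2%), and in single cells the median was 48.8%, with the 5th and 95th percentiles at 41.0% and 59.8%. By library the alpha share ran from 46.8% in library 9 to 53.2% in library 1.

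The division within the beta pair differed between hemoglobin-dominant cells and the rest. Hbb-bt took 17.2% (17.0% to 17.3%) of the beta UMIs in hemoglobin-dominant cells and 11.8% (11.6% to 12.1%) in other cells. In library 7 the values were 18.6% against 10.2%, in library 8 17.6% against 11.3% and in library 9 15.3% against 12.6%. In 8 of 9 libraries the share was higher in hemoglobin-dominant cells, and in library 3 it was 11.8% against 12.5%, with overlapping intervals. The intervals were apart in libraries 1, 5, 7, 8 and 9. Over the steps Hbb-bt took 8.04% of beta UMIs in cells under 1% hemoglobin, 7.98% at 1% to 5%, 9.72% at 5% to 25%, 14.5% at 25% to 50%, and 16.8%, 15.5% and 17.7% in the 3 steps of hemoglobin-dominant cells. The rule used only the sum of the 4 genes, and the part played by reads shared between Hbb-bs and Hbb-bt was not tested.

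**Figure D3:**
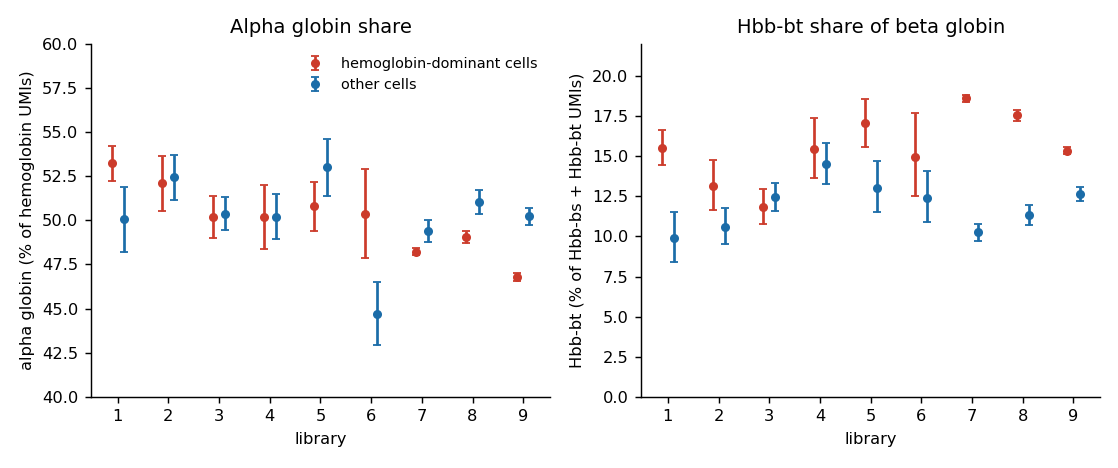
Alpha globin as percent of hemoglobin UMIs (left, axis from 40 to 60) and Hbb-bt as percent of beta globin UMIs (right) in each library, for hemoglobin-dominant cells (red) and other cells (blue), with 95% exact binomial intervals. Alpha shares of hemoglobin-dominant cells lie between 46.8% and 53.2%, and Hbb-bt lies higher in them in every library but library 3.

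The other globins were rare. Of the 8 further globin genes in the table, Hbb-bh1 had 38 UMIs in 35 hemoglobin-dominant cells of libraries 7, 8 and 9 (21, 12 and 5 UMIs), against 6 UMIs in all other cells. Hbb-bh1 is expressed mainly in embryonic red cells. Its neighbour Hbb-bh2 had 14 UMIs, and the theta globins Hbq1a and Hbq1b had 11 and 6. The embryonic Hbb-y and the muscle globin Mb had none. Reads of such near copies can be assigned to the wrong gene, so these few UMIs are uncertain.

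Levels of other genes are given as CPM, the UMIs summed over the cells of a set per 1000000 UMIs of the set's total without the 4 globin genes. They are compared as ratios of CPM + 10, with 4-fold as the limit, among 16809 genes with at least 10 UMIs in both sets together. With all other cells as the reference 68 genes (0.405% of those tested) were at least 4-fold higher in hemoglobin-dominant cells and 283 (1.68%) at least 4-fold lower. With other cells of the same libraries as the reference, each library weighted by the non-globin UMIs of its hemoglobin-dominant cells, 51 (0.303%) were higher and 150 (0.892%) lower, and 48 genes were higher with both. The higher set depends on library 9, without which it held 137 genes; the lower set held 597 genes without library 9 and 447 without library 7. Of the 283 lower genes 204 had no UMI in hemoglobin-dominant cells. With 3 counts in place of 0, the limit used here for every level that a count of 0 allows, 4 of these 204 and 83 of the 283 were still at least 4-fold lower. The cells were chosen on hemoglobin, so no test is attached to these differences. Of the 68 genes, 28 were on one of the lists described below for other globins, red cell functions, metabolism and cell cycle, and 0 on a list for another cell type. Those lists are short: Ptprb, Tie1 and Nostrin, endothelial genes on none of them, were at 6.47, 4.48 and 4.24, and below 4-fold with the same-library reference (3.54, 3.29 and 2.99). All lists were drawn up with earlier results of these data known, and the share of all tested genes on them is not given here. The counts of 28 and 0 are thus no independent evidence of what the cells are.

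Alas2 and Bpgm, the non-globin markers of erythroid cells given for these cells, were both high. Alas2 (chrX:150547375-150570638) makes the enzyme of the first step of heme synthesis in erythroid cells. It had 472 UMIs in 234 hemoglobin-dominant cells of all 9 libraries, 4153 CPM (exact Poisson interval 3786 to 4545), against 4.08 CPM in other cells, a ratio of 296. By library its level was 2216, 4098, 2073, 2372, 2116 and 4469 CPM in libraries 1 to 6, from 3 to 8 UMIs each, and 7815, 3894 and 2379 CPM in libraries 7, 8 and 9, from 245, 72 and 121 UMIs. In other cells no library exceeded 8.06 CPM, so the sets did not overlap. Library 7 was the highest, its interval (6867 to 8858) lying above those of libraries 8 and 9, and without it the level was 2758 CPM.

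Bpgm (chr6:34476207-34505613) makes 2,3-bisphosphoglycerate, which lowers the oxygen affinity of hemoglobin. It had 322 UMIs in 172 hemoglobin-dominant cells, 2833 CPM (2532 to 3160), against 33.1 CPM in other cells, a ratio of 66.0. Its level ran from 512 to 2235 CPM in libraries 1 to 6, each from 1 to 3 UMIs, and was 6348, 2542 and 1239 CPM in libraries 7, 8 and 9. Other cells lay between 25.3 and 44.2 CPM, below every library of hemoglobin-dominant cells. Without library 7 the level was 1494 CPM.

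A UMI of Alas2 was present in 58.9% of hemoglobin-dominant cells and in 0.353% of other cells, mostly brain cells in which the gene is not expected to be active. It was present in 51 of the 151 other cells at 25% to 50% hemoglobin and 14 of the 148 at 5% to 25%. At 1% to 5% it was in 3 of 131, and under 1% in 35 of 28744. After thinning to 100 non-globin UMIs per cell the shares of hemoglobin-dominant and other cells were 37.2% (32.4% to 42.2%) and 0.0480%. For Bpgm they were 43.3% and 3.23%, or 29.1% and 0.326% after thinning. Thinning left out 5 hemoglobin-dominant cells and 0 other cells. At least 1 UMI of Alas2, Bpgm or the ubiquitin ligase gene Mkrn1 was present in 79.3% (75.02% to 83.2%) of hemoglobin-dominant cells and 8.68% of other cells, and UMIs of all 3 in 21.7% and 0.0411%.

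The 20 genes with the highest ratios, among those with at least 10 UMIs in hemoglobin-dominant cells of at least 3 libraries, included genes of heme, iron and red cell maturation. Alas2 led the 20. Ube2l6, which makes an enzyme that passes ubiquitin and ISG15 to proteins, had 1601 CPM against 13.5, a ratio of 68.4. Mkrn1, a ubiquitin ligase, had 3994 CPM against 59.5, a ratio of 57.7, and lay above other cells in all 9 libraries.

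Further genes of these 20 act in heme and iron handling or in mitochondrial clearance. Fech, whose enzyme puts iron into heme in the last step of the pathway, had 783 CPM against 24.1. Slc25a37 (mitoferrin 1, the iron importer of erythroid mitochondria) had 361 CPM against 10.9, Isca1, of iron-sulfur cluster assembly, had 721 against 35.1, and Bnip3l (Nix, the mitophagy receptor needed for mitochondrial loss in reticulocytes) had 2402 against 169. Their ratios were 23.2, 17.7, 16.2 and 13.5. The interferon-induced genes Isg20 and Rsad2 had ratios of 25.1 and 12.6, and Ube2c, which acts with the anaphase-promoting complex, 28.8. Others were Rec114 (38.8), known from meiotic recombination, Fam220a (31.1), AK157302 (12.7), AI662270 (12.3), Apol11b, and the globins Hbb-bh1 and Hbb-bh2. Apol11b had 24 UMIs in hemoglobin-dominant cells and was found in 3 other cells. Of all 20, 17 were also among the leading 20 with the same-library reference.

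**Figure D4:**
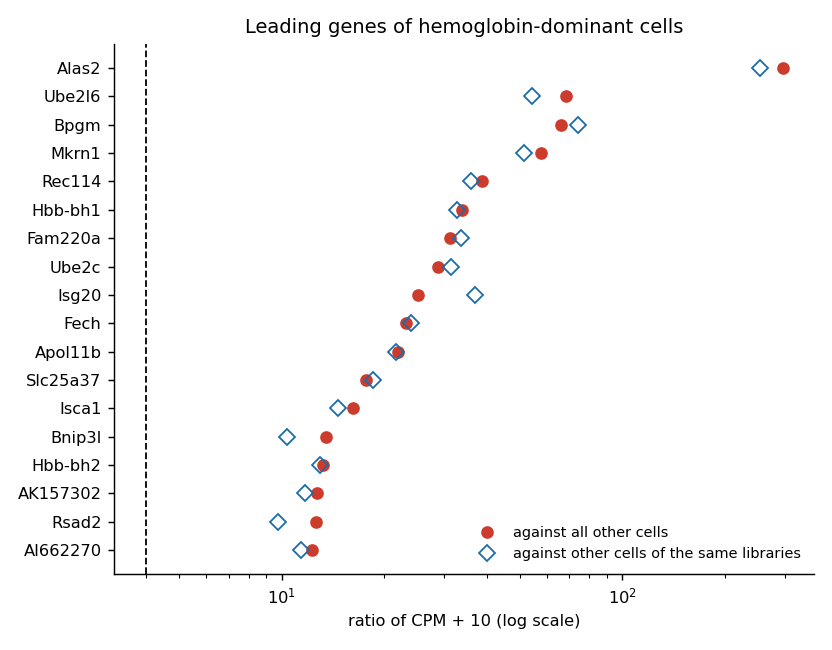
Ratio of CPM + 10 in hemoglobin-dominant cells over all other cells (filled circles) and over other cells of the same libraries (open diamonds) for the named genes among the 20 with the highest ratio, on a log scale; the dashed line marks 4-fold. Every gene plotted lies right of 4-fold with both references, Alas2 furthest at 296 and 254.

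Some genes of heme synthesis were higher, where 0.405% of all genes tested were at least 4-fold higher and 1.68% lower. Of the 15 genes on the list all were tested: 4 were at least 4-fold higher (Alas2, Fech, the mitochondrial carrier Slc25a39 with a ratio of 4.80, and Fam210b with 4.19), 0 lower and 11 neither, and the list's median log2 ratio was 0.10 against -0.18 over all genes tested. Fam210b had 10 UMIs and a ratio of 3.41 with the same-library reference. The middle steps of the pathway had little: Ppox had 6 UMIs, Urod 5, Alad 1, and Uros and Cpox 0. Alas1, the form of the first enzyme used in other tissues, had 88.0 CPM against 50.4. Summed over the list the level was 5552 CPM against 337, higher in all 9 libraries, and Alas2 gave 472 of its 631 UMIs.

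Among 14 genes of iron uptake and storage 3 were at least 4-fold higher, Slc25a37, Ftl1 and Blvrb, and 0 lower. Over all genes tested 0.405% were higher and 1.68% lower. The ferritin light chain Ftl1 had 6792 CPM against 1434 (ratio 4.71, or 3.41 with the same-library reference), whereas the heavy chain Fth1 had 3616 against 2819. Blvrb, a biliverdin reductase, was at 4.01, or 3.32 with the same-library reference. Tfrc, the transferrin receptor through which erythroid precursors take up iron, had 6 UMIs, 52.8 CPM against 37.9. The median log2 ratio of the list was 0.74.

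Genes of the membrane and its skeleton were mostly near or below the level of detection. Among 26 such genes 23 could be tested and 3 were higher, against 0.405% of all genes tested. Among the 3 were Cd24a (a ratio of 8.47) and Epb41, which makes the skeleton protein 4.1 (7.82). Summed over the list the level was 7980 CPM, against 2470 in other cells and 3434 in those of the same libraries, and higher in 8 of 9 libraries. Bsg gave 512 of its 907 UMIs, at 4505 CPM against 1496 (ratio 3.00), and Slc2a1 had 765 against 264 (2.83). Slc4a1, the anion exchanger band 3, had 4 UMIs, Epb42 and Rhd 2 each, Rhag 1, and Ank1, Gypc, Icam4, Xk, Aqp1 and Slc14a1 had 0. Slc4a1 reached a ratio of 4.49 on 4 UMIs against 2 in other cells but was below the 10 UMIs needed to be tested. Of the 3 genes on the list for oxygen affinity, Bpgm and Car2 (a carbonic anhydrase, 862 CPM against 66.4, ratio 11.4) were higher, and Car1 had no UMI.

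Erythroid transcription factors had few UMIs. Of 17 tested, 0 were at least 4-fold higher or lower. Over all genes tested 0.405% were higher and 1.68% lower, so a count of 0 does not set this list apart. The whole list had 58 UMIs, 510 CPM (387 to 660) against 364. Klf1, the master regulator of adult globin genes, had no UMI, Tal1, Nfe2 and Epor had 1 each, and Zbtb7a, which silences fetal-type globins, had 16 UMIs, 141 CPM against 115. With 113660 non-globin UMIs in all hemoglobin-dominant cells, 0 UMIs allow up to 26.4 CPM, by the limit of 3 counts.

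The list for reticulocyte clearance and ubiquitin-dependent degradation had the most higher genes. Over all genes tested 0.405% were at least 4-fold higher, or 0.303% with the same-library reference. Of 26 tested on this list 10 were at least 4-fold higher, 0 lower and 16 neither, with a median log2 ratio of 1.52. The same count was found with the same-library reference. Besides Mkrn1, Ube2l6, Bnip3l and Isg20 they included Fam46c (12.0), Tspo2 (6.14, 6 UMIs), the autophagy genes Map1lc3b (5.16) and Gabarapl2 (5.08), and Bcl2l1 (4.39), which keeps red cell precursors alive. With the same-library reference Bcl2l1 was at 3.75 and Ube2o, a ubiquitin ligase of reticulocytes, at 5.53 in place of 3.67. Summed over the list the level was 23078 CPM against 4183, and higher in all 9 libraries. The list was drawn up with earlier results of these data known, so it is no independent evidence of a direction.

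Redox, glycolysis and cell cycle lists held few genes past 4-fold, where 0.405% of all genes tested were higher and 1.68% lower. Of 19 redox genes Gpx1 (glutathione peroxidase 1, 1856 CPM against 146, ratio 11.9) and Gclm (4.65, or 3.74 with the same-library reference) were higher, and Prdx2, an abundant red cell peroxiredoxin, was at 3.17. Of 16 glycolysis genes Bpgm alone was higher. Hk1 and Pgk1 had no UMI and passed 4-fold lower, but with 3 counts in place of 0 neither did. Of 20 cell cycle genes Ube2c alone was higher, and 13 had no UMI, Mki67, Top2a, Cdk1, Ccnb1 and Ccna2 among them, each at a level in other cells that was below the limit a count of 0 allows. Nusap1 and Diaph3, of mitosis and cytokinesis and on none of the lists, were higher, with 14 and 19 UMIs and ratios of 10.7 and 9.85. Among 10 genes of blood progenitors 0 passed 4-fold, and Kit, Flt3 and Prtn3 had no UMI. Mature red cells and reticulocytes no longer divide.

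In CPM, Alas2 and several other leading genes were higher in cells with a larger hemoglobin share, and Alas2 also within libraries. The steps were cut on hemoglobin and CPM divides by the non-globin UMIs. A gene that keeps pace with hemoglobin is thus higher in CPM in each step, so this order follows in part from the rule. Alas2 was at 1345 CPM (1087 to 1646) in the step of 50% to 75%, 3961 (3099 to 4988) at 75% to 90% and 11949 (10648 to 13366) at 90% or more. In library 7 the values were 1321, 5520 and 14692 CPM, in library 8 1124, 3499 and 11500, and in library 9 1050, 3993 and 6379. Bpgm was at 701, 2310 and 9021 CPM, and Mkrn1 at 1360, 3411 and 11598. Ube2l6 was at 587, 1430.3 and 4491 CPM, and Bnip3l at 1016, 2916 and 5818 CPM. The share of cells with at least 1 UMI of Alas2, Bpgm or Mkrn1 was 63.7%, 78.4% and 93.9%. Not all red cell genes had this order. The membrane list summed to 7886, 5171 and 10231 CPM, the transcription factor list to 587, 220.05 and 508 CPM, and Tfrc had its 6 UMIs in the lowest step. The order of Alas2 was the same in cells outside the rule, with 573 CPM in cells of 25% to 50% hemoglobin, 123 at 5% to 25% and 1.16 under 1%. Those steps were cut on hemoglobin too.

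**Figure D5:**
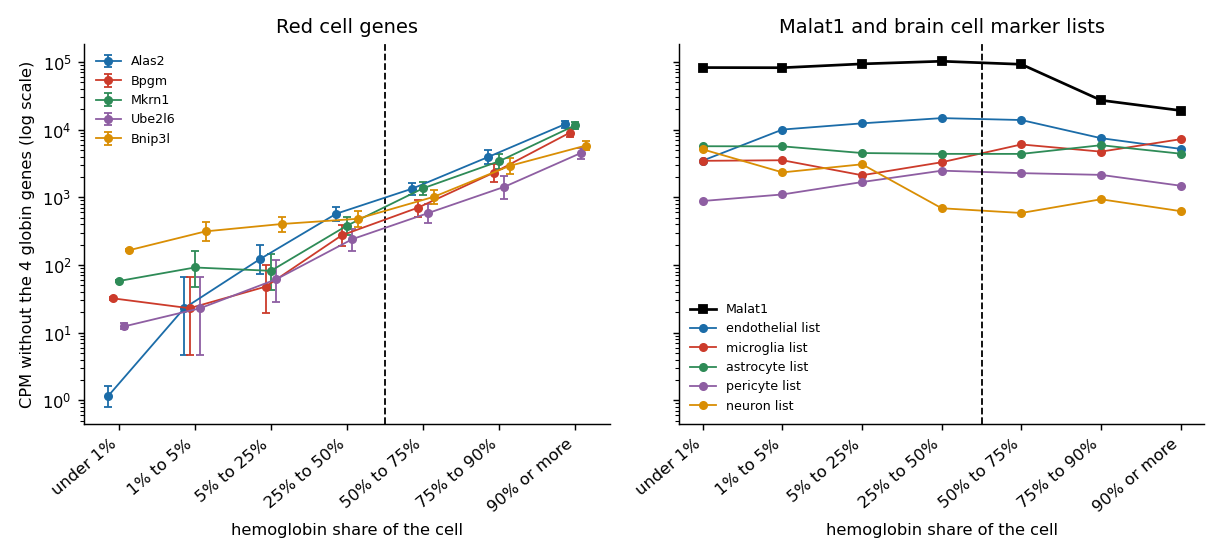
CPM without the 4 globin genes (log scale) by the hemoglobin share of the cell, for 5 of the leading genes with 95% exact Poisson intervals (left) and for Malat1 and the summed markers of 5 brain cell classes (right); the dashed line is the 50% rule. Alas2 lies at 573 CPM left of the rule and at 1345, 3961 and 11949 right of it, while Malat1 lies at 92366, 27176 and 19174 in the same 3 steps.

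Set against hemoglobin rather than against the other RNA, Alas2 was nearly level. Per 1000 hemoglobin UMIs it had 0.792 (0.640 to 0.969), 0.725 (0.567 to 0.913) and 0.827 (0.737 to 0.926) UMIs in the 3 steps, and 0.957 (0.744 to 1.21) in cells of 25% to 50%. Mkrn1 had 0.800, 0.624 and 0.803. All these intervals overlapped within a gene. Bpgm was higher in the top step, at 0.625 (0.547 to 0.711) against 0.413 (0.305 to 0.546) in the lowest. Library 7, where Bpgm was highest, gave 88 of the 163 cells of the top step and 19 of the 146 of the lowest. Within libraries 7, 8 and 9 Bpgm had 0.741, 0.536 and 0.337 in the top step against 0.593, 0.416 and 0.299 in the lowest, with overlapping intervals in each. The steps were cut on hemoglobin, so non-globin RNA as a whole falls against it. It had 69874 UMIs beside 118741 of hemoglobin in the lowest step and 25608 beside 369789 in the top step. Lower values per hemoglobin UMI thus follow in part from the rule and are not read as a change in a gene. In the pooled steps other genes were lower in the top step than in the lowest, with intervals apart. Slc25a37 was at 0.0325 (0.0168 to 0.0567) against 0.185 (0.116 to 0.281). Gpx1 was at 0.311 (0.257 to 0.373) against 0.556 (0.430 to 0.707), and Ftl1 at 1.09 (0.986 to 1.20) against 2.26 (1.99 to 2.54). Within libraries the intervals were apart for Slc25a37 in library 9, for Gpx1 in library 9, and for Ftl1 in libraries 7 and 9, while Gpx1 was at 0.349 against 0.259 in library 7 and at 0.268 against 0.208 in library 8. Ube2c had no UMI beside the 118741 hemoglobin UMIs of the step of 50% to 75%, against 0.0865 (0.0592 to 0.122) at 90% or more. Among hemoglobin-dominant cells it was thus found in those above 75% only.

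Malat1 was lower in the upper steps. This nuclear RNA, found in nearly all nucleated cells, was at 92366 CPM in the step of 50% to 75%, 27176 at 75% to 90% and 19174 at 90% or more, against 82622 in cells under 1% hemoglobin. Per cell this was a mean of 44.2, 5.61 and 3.01 UMIs. Malat1 was detected in 95.9% of the cells at 50% to 75%, 83.0% at 75% to 90% and 87.7% at 90% or more. In cells under 1% hemoglobin it was detected in 98.7%. The medians of non-globin UMIs per cell were 431, 164 and 139 in the steps, and 798 under 1%.

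Endothelial markers were the leading brain list in the lowest step. Without Bsg and Slc2a1, which red cells also express, the 16 endothelial genes summed to 13868 CPM at 50% to 75%, 7482 at 75% to 90% and 5194 at 90% or more, against 14798 at 25% to 50% and 3492 under 1%. Over all hemoglobin-dominant cells the sum was 10892 CPM, against 3607 in all other cells and 6093 in those of the same libraries. All 16 had UMIs in hemoglobin-dominant cells, and their sum by library ran from 0 to 18955 CPM, against 422 to 8239 CPM in other cells, higher in 7 of 9 libraries. Flt1 was at 773, 275 and 195 CPM and Cldn5 at 687, 275 and 234 CPM in the 3 steps, the last from 5 and 6 UMIs. At least 2 of the 16 genes were seen in 116 of 397 cells (29.2%).

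Of the other brain classes, pericyte and oligodendrocyte genes summed to more than in either reference, and microglial genes to more than in all other cells only. Astrocyte, neuronal, arterial smooth muscle, ependymal, border macrophage, fibroblast and choroid plexus genes summed to less than in either. Oligodendrocyte genes had 43 UMIs, 378 CPM (274 to 510) against 208 and 342. Arterial smooth muscle genes were at 1056 CPM against 1754 and 3043, and ependymal genes at 607 against 1448 and 2416. Microglial genes summed to 6097 CPM against 3455 in all other cells and 6152 in other cells of the same libraries, with all 10 detected, and stood at 6039, 4731 and 7224 CPM in the 3 steps. All 9 pericyte genes were detected, at 2076 CPM (1820 to 2359), against 893 in all other cells and 1631 in those of the same libraries. The pericyte sum was higher in 6 of 9 libraries, and in library 7 it was 1563 CPM against 2149. All 12 astrocyte genes were detected, at 4628 CPM against 5674 and 6429. Neuronal genes were at 651 CPM against 5069 and 1663, with 10 of 12 detected and Slc17a6 and Rbfox3 at 0. Over all genes tested 0.405% were at least 4-fold higher and 1.68% lower than in all other cells. Of the microglial, pericyte, astrocyte and neuronal lists 0 genes were at least 4-fold higher, and 5 of 12 neuronal genes were at least 4-fold lower. One of them, Rbfox3, had no UMI and did not pass with 3 counts in place of 0, which leaves 4. With the same-library reference 1 neuronal gene (Meg3) and 1 astrocyte gene (S100b) were. Leaving out the 275 cells with UMIs of at least 2 markers of any other class left 122 cells, with Alas2 at 7614 CPM and Bpgm at 6435. Of these 122 cells 81 were at 90% or more hemoglobin, against 163 of all 397, so the filter changed the mix of steps as well. The part of the 275 cells in the profiles was not tested, nor was that of RNA free in the droplets.

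Markers of other blood cells were few in both sets. Of 10 neutrophil genes 8 had no UMI, Camp, Ngp, Ltf, Retnlg and Lcn2 among them, and the list had 5 UMIs in all, 44.0 CPM against 71.2 in other cells. The T and NK cell list had 1 UMI, 8.80 CPM against 39.6, with Cd3e, Cd3d, Cd3g and Nkg7 at 0. The platelet list had 7 UMIs without the genes it shares with the red cell lists, 61.6 CPM against 56.8, with Ppbp at 0. The B cell list had 31 UMIs, 30 of them of Ebf1, 273 CPM (185 to 387) against 102, but its defining genes Cd79a, Cd79b and Ms4a1 were at 0. Of all 16809 genes tested 6791 had no UMI in hemoglobin-dominant cells, and 0 UMIs allow up to 26.4 CPM. The zeros of these lists thus do not show absence.

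Outside the 4 globins the most counted genes of hemoglobin-dominant cells were Malat1, 7 mitochondrial genes, Cst3, Rpl41, Ftl1, Tmsb4x, Actb, Sec61g and Ubb. These are ranks by UMIs of the 3′ end and carry no correction for length. Sec61g, a subunit of the channel that moves proteins into the endoplasmic reticulum, had 5745 CPM against 668 (ratio 8.49, higher in all 9 libraries), and Ubb, a ubiquitin gene, 5666 against 2210. Cst3, highly expressed in microglia and astrocytes, was at 13400 CPM, against 13290 in other cells of the same libraries. In the 163 cells at 90% or more alone, Alas2, Mkrn1 and Bpgm stood 12th, 13th and 16th, Ftl1 was at 15737 CPM, Sec61g at 14956, and Oaz1, an inhibitor of polyamine synthesis, at 6209 against 684 in other cells.

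Mitochondrial transcripts took 17.0% of the non-globin UMIs in hemoglobin-dominant cells and 7.25% in other cells. By library the share was 14.2%, 13.4% and 21.2% in libraries 7, 8 and 9, against 9.16%, 9.94% and 12.8% in their other cells. It was higher in hemoglobin-dominant cells in 8 of 9 libraries, the exception being library 6 with 3 cells, at 1.45% against 2.55%. By step it was 13.5%, 27.6% and 19.3%, highest in the middle step, and within libraries 7, 8 and 9 it was also highest there, at 26.2%, 27.1% and 30.3%. All 13 genes of the mitochondrial genome in the table were detected and 0 passed 4-fold, where 0.405% of all genes tested were higher and 1.68% lower. Ribosomal protein genes took 8.79% of non-globin UMIs, against 8.55% in other cells. The order differed between libraries: the share was 8.71% against 9.62% in libraries 7 to 9, and 9.35% against 7.87% in libraries 1 to 6.

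The 10 genes with the lowest ratios, of at least 200 CPM in all other cells, were pituitary and neuronal genes: the hormone genes Cga, Gh, Lhb, Prl and Pomc, and Dlk1, Meg3, Scg2, Nrgn and Chn1. Cga and Lhb, subunits of pituitary hormones, and Dlk1 had no UMI in hemoglobin-dominant cells. The pituitary list ranged from 47.7 to 380151 CPM over the libraries' other cells, and from 47.7 to 81.7 in libraries 7 to 9, which hold most hemoglobin-dominant cells. Gh, growth hormone, was at 109459 CPM in all other cells but at 12357 in other cells of the same libraries, against 880 in hemoglobin-dominant cells. With the same-library reference the lowest 10 were Cga, Gh, the ciliated cell genes Efcab10, Tmem212 and Fam183b, Mia, Tagln of smooth muscle, Chchd10, Ttr and Enpp2. Tagln was at 88.0 CPM against 660 and Tmem212 at 44.0 against 499. Without library 9 the log2 ratios of Ttr (transthyretin) and Enpp2, both of choroid plexus, to all other cells were 1.65 and 0.10, in place of -0.67 and -0.88. In library 9 Ttr and the other choroid plexus genes summed to 28558 CPM in other cells and 5880 in hemoglobin-dominant cells.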

How the data were processed

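The authors prepared libraries with the Chromium v2 3′ kit, used Cell Ranger 2.2.0 and GRCm38 per the submitters' processing notes, and deposited UMI counts, whole numbers without normalization, for 18634 genes in 29571 cells; the annotation release is not given in the sources used here. From these counts the cells were chosen by the 50% rule. CPM were computed with the 4 globin genes left out of totals, sums have exact Poisson intervals and shares exact Clopper-Pearson intervals (95%, counting error only). Genes with at least 10 UMIs in both sets together were compared as ratios of CPM + 10, with 4-fold as the limit. With 1 library per region and group, and libraries not tied to samples by the labels, no test was made, and members of a set are not replicates.

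The cells, gene lists and rules were chosen with earlier results of these data known. Named were the list genes, the 20 highest genes (at least 10 UMIs, at least 3 libraries), the 10 lowest (at least 200 CPM in other cells), the 15 most counted, and, after their values were seen, the lowest 10 with the same-library reference, Oaz1, Ptprb, Tie1, Nostrin, Nusap1, Diaph3 and genes named within a list. Ahsp and Gata1 are not named in the table, and some genes that the rule would name are not reported here. No doublet caller was run; leaving out cells with at least 2 markers of another class took its place. Alternatives were other hemoglobin shares, at least 1000 UMIs per cell, unique barcodes, other totals, weights, pseudocount, filters and reference cells, and each library left out. The ratio was tested on simulated data drawn from the other cells, with counting error only. The changed genes were taken from those of at least 50 CPM there. Of 100 genes raised 8-fold 100 were called, of 100 lowered 8-fold 81, and of 16582 left unchanged 52 were called in either direction. Raised genes below 50 CPM in other cells, where Alas2 lies, were thus not tried. Promoters are from RefSeq and were found for 12 of the leading 20 genes. Computation used Python 3.11.15 with pandas 2.3.3, scipy 1.17.1, numpy 2.4.6 and, for figures, matplotlib 3.10.9.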

Additional observations from a re-analysis of the deposited data

How the results depend on the processing

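Each region and group has 1 library, so sleep groups and regions could not be compared with replicates. Hemoglobin-dominant and other cells were set side by side within each library, and no result comes from a test. With the rule at 25%, 75% and 90% the share of cells was 1.85%, 0.849% and 0.551%, the alpha share of hemoglobin 48.6%, 47.2% and 47.0%, Alas2 2311, 8633 and 11949 CPM, Bpgm 1517, 6235 and 9021 CPM, and the mitochondrial share 12.9%, 22.7% and 19.3%; higher genes numbered 151 and 284 at 75% and 90%, and lower genes 143, 977 and 1720. Among cells of at least 1000 UMIs the values were 2.85%, 47.7%, 4583 and 3268 CPM, with 115 higher and 556 lower genes. Without cells holding 2 or more markers of another class they were 0.416%, 47.3%, 7614 and 6435 CPM, 29.99% mitochondrial, and 356 and 2103 genes. With markers shared with red cells kept out of that filter, chosen after seeing the data, they were 0.484%, 47.5%, 7896 and 6220 CPM, 29.1%, and 284 and 1860 genes. Totals with the globin genes gave Alas2 673 and Bpgm 459 CPM, 2.76% mitochondrial, and 13 and 2157 genes; totals without globin and mitochondrial genes gave 5005 and 3415 CPM. The mean over cells gave 6341 and 4446 CPM and 19.5%, and the median over libraries 2379 and 1244 CPM, 13.5% and 3277 lower genes. A pseudocount of 1 gave 352 and 3754 genes, a minimum of 50 CPM 132 lower genes, and the same-library reference, chosen after seeing the data, 150 lower genes. Leaving out each library in turn gave shares of 0.901% to 1.54%, alpha shares of 47.9% to 48.7%, Alas2 of 2758 to 5589 CPM, Bpgm of 1494 to 4124 CPM, 62 to 137 higher and 200 to 597 lower genes, and mitochondrial shares of 13.6% to 18.1%. The cause of these shifts was not tested.

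With the median over libraries the log2 ratio changed sign for Ube2c (-0.17), AK157302 (-0.47), Rsad2 (-0.60) and AI662270 (-0.26), each absent from most libraries. The Ttr log2 ratio became 0.16 at the 75% rule, 0.33 and 0.17 without cells holding other markers, 1.81 as the mean over cells and, leaving out each library, from -0.94 to 1.65, the last without library 9. The Enpp2 log2 ratio became 0.15 and 0.22 at the 75% and 90% rules, 0.48 and 0.39 without cells holding other markers, 1.20 as the mean over cells and, leaving out each library, from -1.13 to 0.10, again without library 9. All 20 leading genes kept a ratio of at least 4 with the rule at 25%, 75% and 90%. Of them 19 did without library 7 and without cells holding other markers, and 13 with totals that include globin or with the median over libraries. At 113660 non-globin UMIs in all, a gene under about 26.4 CPM can be missed, and in libraries 1 to 6, with 58 cells, 1 UMI decides a level.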

Other observations

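Between the 28744 cells under 1% hemoglobin and the hemoglobin-dominant cells lay 430 others. In the 131 cells at 1% to 5% Alas2 and Bpgm had 3 UMIs each, 23.0 CPM (4.74 to 67.1), against 1.16 and 32.1 CPM in cells under 1%. In the same cells choroid plexus genes summed to 32298 CPM, against 4237 under 1%, and the 16 endothelial genes to 10029 CPM. Ttr gave most of the choroid plexus sum, with 4185 UMIs found in 24 of the 131 cells. In the 148 cells at 5% to 25% and the 151 at 25% to 50% the endothelial genes summed to 12389 and 14798 CPM, against 3492 under 1%, and pituitary genes to 36601 and 34089 CPM, against 129563 under 1%. The alpha genes took 37.1% of hemoglobin UMIs in cells under 1%, 60.4% at 1% to 5%, 55.1% at 5% to 25% and 53.4% at 25% to 50%, against 51.4%, 48.1% and 47.0% in the 3 steps of hemoglobin-dominant cells. No explanation of these differences was tested.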
